A study of Mus musculus with 5 samples.

Results

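Mouse dendritic cells that had been with the compound Fanchinoline for 6 h were compared with the same cells at 2 h. The cells were MutuDC, an established dendritic cell line of the cDC1 kind, which is the conventional dendritic cell subset that presents antigen to CD8 T cells. The line grew out of a tumour of mice that carry a viral oncogene under the CD11c promoter, so it divides without limit, unlike a resident dendritic cell. The series holds 5 poly-A RNA-seq libraries, namely MutuDC with Fanchinoline for 2, 6, 12 and 24 h and a vehicle control taken as 0 h, with 1 library for each. The 6 h and 2 h libraries differ by hours of exposure and equally by hours in culture, and these cannot be told apart. The sources used here state no dose. Of the 53700 genes in the count table, the 8600 that reached 10 CPM (counts per 1e6 of the scaled library total) in the 6 h or the 2 h library were compared. Near that minimum, Pigv was compared with 10.01 CPM at 6 h and 6.97 CPM at 2 h, while Slfn5 was not, with 7.77 CPM at 6 h and 9.97 CPM at 2 h. Commd1b, with 4.26 CPM at 6 h and 9.993 CPM at 2 h, was also left out, although its log2 ratio of 6 h over 2 h was -1.22.

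Each time point is a single library, so replicate error is unknown and no p-value appears. The submitters' design text mentions triplicates and untreated rather than vehicle cells, and the sources used here do not say whether a column pools several cultures. Total counts were 42854511 at 6 h and 37589066 at 2 h, which makes 10 CPM equal to 425 and 373 counts. The errors given are 95% exact intervals (Clopper-Pearson) for a ratio of scaled counts. They cover counting error only, and their median half-width was 0.091 on the log2 scale. A gene was called higher or lower where its log2 ratio, 6 h over 2 h, was 1 or more in size with an interval lying off 0. Such a call sets 2 libraries apart and says nothing of the spread between cultures. All 8 cDC1 markers examined (Irf8, Batf3, Xcr1, Clec9a, Cd8a, Flt3, Zbtb46 and Itgax) reached 10 CPM, with a summed level of 5722 CPM at 6 h and 6691 CPM at 2 h. Most of that sum was Irf8, with 4317 CPM at 6 h and 5140 CPM at 2 h. The markers did not move by the same amount, with log2 ratios from -0.28 for Zbtb46 to -0.01 for Batf3, Cd8a and Flt3. In bulk RNA, fewer cells of a type and less RNA per cell cannot be told apart. Markers of other cell types were not all near 0. The 12 cDC2 and monocyte markers summed to 380.1 CPM at 6 h and 397.7 CPM at 2 h. Only 2 of them, Lyz2 and Csf1r, reached 10 CPM, and Lyz2 had 287.8 CPM at 6 h and 282.0 CPM at 2 h. The 10 lymphocyte markers summed to 1.41 CPM at 6 h and 1.88 CPM at 2 h, and 7 of them had no count in either library. The 9 fibroblast and epithelial markers summed to 7.87 CPM at 6 h and 7.39 CPM at 2 h.

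The hypoxia-inducible factors (HIF) are transcription factors whose alpha subunits are marked for destruction by oxygen- and iron-dependent prolyl hydroxylases; when they persist, they raise glucose uptake, glycolysis, lactate export and the removal of mitochondria. ATF4 is the transcription factor made when initiation of translation is damped by amino acid shortage, endoplasmic reticulum stress or other stresses, and its targets import and make amino acids and feed back on the stress signal. The SREBP factors leave the endoplasmic reticulum when sterols there run low, and switch on the enzymes that make cholesterol and unsaturated fatty acids. Dendritic cells are known to change glycolysis and lipid synthesis when they mature.

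Most messages had nearly the same level at 6 h as at 2 h. The median log2 ratio over the 8600 genes was 0.01, the 5th and 95th percentiles were -0.21 and 0.27, and 90.9% of genes differed by less than 0.25 in size. At 6 h 14 genes (0.163% of those compared) were called higher and 8 (0.093%) lower than at 2 h, together 22 genes or 0.256%. For the step from 6 to 12 h 23 of 8608 genes (0.267%) were called in either direction, and for that from 12 to 24 h 8 of 8596 (0.0931%). With the size limit lowered to 0.5, chosen after the data were seen, 97 genes (1.13%) were called higher at 6 h and 39 (0.453%) lower.

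**Figure D1:**
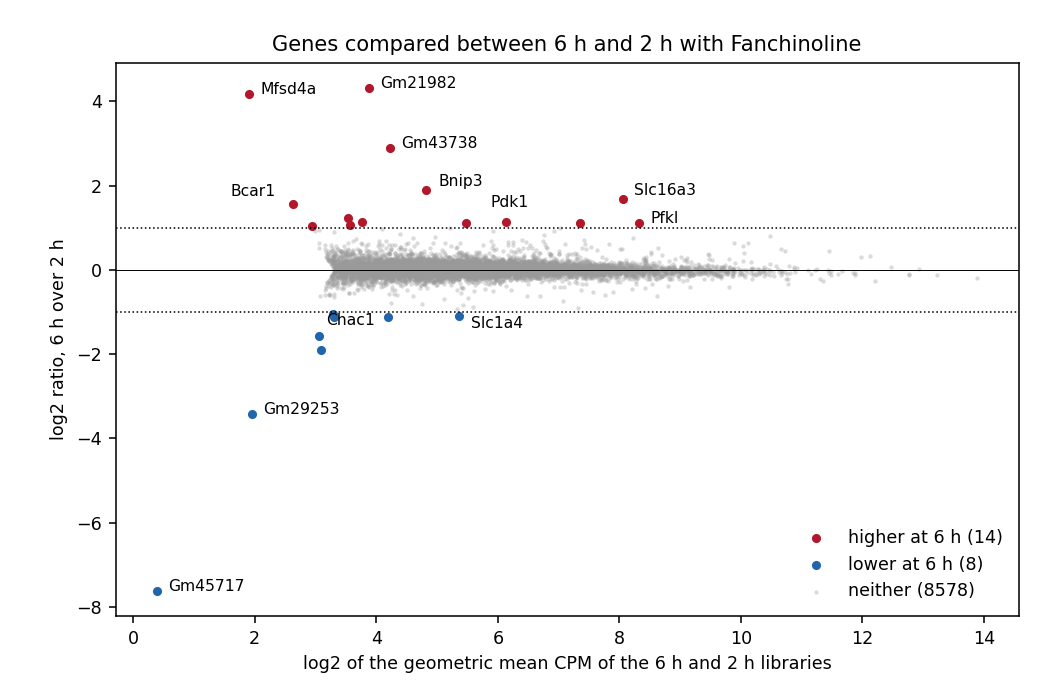
Each point is 1 of the 8600 compared genes, with the log2 ratio of 6 h over 2 h on the vertical axis and the log2 of the geometric mean CPM of both libraries on the horizontal axis. The 14 genes called higher (red) and the 8 called lower (blue) lie outside the dotted lines at 1 and -1, and the remaining genes form a narrow band around 0.

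The genes called higher that have an ordinary symbol were led, apart from Mfsd4a, by genes of the oxygen response and of glucose use. Bnip3 (ENSMUSG00000078566), an outer-membrane protein that tags mitochondria for autophagy, had 54.8 CPM at 6 h and 14.7 CPM at 2 h. Its log2 ratio of 1.90 (interval 1.76 to 2.04) stood beside 14.9 CPM in the vehicle library, so the 2 h level was close to that of vehicle. Bnip3l, its close relative with the same role, had 65.3 CPM at 6 h and 30.4 CPM at 2 h (log2 ratio 1.10, interval 1.004 to 1.21). In the later libraries Bnip3l stood higher still, at 120.4 CPM at 12 h and 123.4 CPM at 24 h. Pdk1, the kinase that shuts pyruvate dehydrogenase and so keeps pyruvate out of the mitochondrial cycle, had 104.5 CPM at 6 h and 47.7 CPM at 2 h (log2 ratio 1.13, interval 1.05 to 1.21).

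Slc16a3 (ENSMUSG00000025161), which exports lactate, had 476.6 CPM at 6 h and 148.5 CPM at 2 h, with a log2 ratio of 1.68 (interval 1.64 to 1.73). Over the series it had 96.2, 148.5, 476.6, 589.8 and 485.5 CPM at 0, 2, 6, 12 and 24 h, so the step from 2 to 6 h was the widest of its steps. Pfkl, the liver-type subunit of phosphofructokinase and a committed step of glycolysis, had 472.3 CPM at 6 h and 218.0 CPM at 2 h (log2 ratio 1.12, interval 1.08 to 1.15). Pgm1, as this entry (ENSMUSG00000025791) is named in the count table, is a phosphoglucomutase that joins glycogen to glycolysis, and had 240.6 CPM at 6 h and 110.8 CPM at 2 h (log2 ratio 1.12, interval 1.07 to 1.17).

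Outside these pathways, Ccng2, an unconventional cyclin linked to cell cycle arrest, had 17.2 CPM at 6 h and 8.14 CPM at 2 h (log2 ratio 1.07). Bcar1, a scaffold protein of focal adhesions, had 10.6 CPM at 6 h and 3.56 CPM at 2 h (log2 ratio 1.56, interval 1.29 to 1.87). Both were higher still at 12 h, with 29.2 and 19.4 CPM. Mfsd4a, a transporter-family protein, had the highest ratio among ordinary symbols, 16.4 CPM at 6 h and 0.857 CPM at 2 h (log2 ratio 4.18, interval 3.75 to 4.82), but its level did not follow time: it had 2.68 CPM in vehicle, 15.3 CPM at 12 h and 0.961 CPM at 24 h. Mfsd4a shares exon positions with Elk4 on the opposite strand, and the library kit does not mark strand; Elk4 had 49.6 CPM at 6 h and 48.2 CPM at 2 h. Bnip3 and Pgm1 also have a partner on the opposite strand, but these partners had 0 and 1.13 CPM at 6 h and 0 and 1.47 CPM at 2 h.

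The promoters of Bnip3 and Slc16a3, the compared oxygen and glycolysis genes with the highest ratios, are printed below because they were called higher together with other HIF targets. The core of the HIF binding element is ACGTG or GCGTG, searched on both strands and set in capitals; the first form is contained on both strands of the E box CACGTG, which stands in the Bnip3 sequence. Sequences are from RefSeq on GRCm38.p6, read 5′ to 3′ along the gene: Bnip3 at chr7:138909507-138909756, minus strand, and Slc16a3 at chr11:120948817-120949066, plus strand, each the 250 bases before the start site.
Bnip3: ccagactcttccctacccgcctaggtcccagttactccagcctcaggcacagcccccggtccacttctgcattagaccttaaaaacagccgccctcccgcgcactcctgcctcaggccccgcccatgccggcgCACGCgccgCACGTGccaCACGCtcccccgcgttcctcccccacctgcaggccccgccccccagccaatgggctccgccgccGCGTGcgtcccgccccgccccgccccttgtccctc
Slc16a3: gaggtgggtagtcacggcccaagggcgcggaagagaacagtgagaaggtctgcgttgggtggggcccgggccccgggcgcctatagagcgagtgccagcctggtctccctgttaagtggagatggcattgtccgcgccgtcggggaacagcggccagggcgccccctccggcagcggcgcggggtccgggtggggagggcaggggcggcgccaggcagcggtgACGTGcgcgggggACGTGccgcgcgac

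Shorter stretches of 29 bases around a match, capitals as before, show the core in other genes of the same group. They lie at chr4:99929258-99929286, plus strand, for Pgm1, at chr2:71873134-71873162, plus strand, for Pdk1, and at chr4:119108697-119108725, plus strand, for Slc2a1.
Pgm1: ccaatcacagtaACGTGctgaactcttcg
Pdk1: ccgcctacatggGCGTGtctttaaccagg
Slc2a1: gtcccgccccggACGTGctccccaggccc

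In windows from 250 bases before to 50 after a start, 9 of the 14 genes called higher had an entry, and all 9 held the HIF core in at least 1 window. The core is common: 46.7% of 27025 genes with an entry held it, and 70.7% of the 6858 compared genes with an entry. Among the glycolysis genes 17 of 19 held it, among the oxygen-sensing genes 7 of 7, and among the cholesterol genes 10 of 16. It stood equally in 2 of 2 genes called lower, in 5 of 5 ATF4-target transporters and in 4 of 5 HIF targets of mitochondria, so it does not set the genes called higher apart. A match is a description of these letters and not of binding.

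The wider HIF list followed the called genes in direction, with smaller ratios. This and the other lists were written with earlier results of these data known. Of its 16 genes for oxygen sensing and matrix, 10 were compared. All 10 had a log2 ratio above 0, against 55.0% of all compared genes, with a median of 0.60 against 0.01. The limit of 0.5 was passed by 7, against 1.13% of all compared genes, although none passed that of 1. Higd1a, a mitochondrial protein induced by low oxygen, had 52.6 CPM at 6 h and 26.3 CPM at 2 h, a log2 ratio of 0.999 that lay just under the limit. Egln1, a prolyl hydroxylase that marks HIF for destruction and is itself a HIF target, had 183.9 CPM at 6 h and 92.8 CPM at 2 h (log2 ratio 0.99, interval 0.93 to 1.04). The collagen prolyl hydroxylase subunit P4ha1 had a log2 ratio of 0.61. Ero1a, an oxidase for disulfide formation in the endoplasmic reticulum, had 75.6 CPM at 6 h and 46.7 CPM at 2 h. Ankrd37, Kdm4b and Ndrg1 had log2 ratios of 0.86, 0.59 and 0.51.

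Not every HIF target was higher at 6 h or measurable. Vegfa, the vascular growth factor, stayed below 10 CPM with 5.68 CPM at 6 h and 4.69 CPM at 2 h, and Car9, a carbonic anhydrase, had 3.37 CPM at 6 h and 3.96 CPM at 2 h. Egln3, another HIF prolyl hydroxylase, had no count in either library; 3 counts, the most that a count of 0 allows, would be 0.0707 CPM at 6 h and 0.0804 CPM at 2 h. Below the minimum on level, 3 further HIF targets had ratios above those of most compared genes. P4ha2, like P4ha1 a collagen prolyl hydroxylase subunit, had 7.42 CPM at 6 h and 1.90 CPM at 2 h (log2 ratio 1.93, interval 1.59 to 2.36). Ak4, a mitochondrial adenylate kinase, had 7.09 CPM at 6 h and 1.42 CPM at 2 h (log2 ratio 2.28, interval 1.89 to 2.77). Mgarp, a protein of mitochondrial transport, had 4.97 CPM at 6 h and 1.15 CPM at 2 h (log2 ratio 2.06, interval 1.63 to 2.62). All 3 had more CPM at 12 h than at 6 h, namely 13.5, 14.7 and 12.3 CPM.

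Among the 10 HIF targets of mitochondria and mitophagy 6 were compared, with a median log2 ratio of 0.73. Of these, 3 (Bnip3, Bnip3l and Pdk1) were called higher, against 0.163% of all compared genes. Lonp1, a matrix protease, had 158.3 CPM at 6 h and 124.3 CPM at 2 h. Fundc1, another mitophagy receptor, stood apart: it had 22.7 CPM at 6 h and 23.8 CPM at 2 h, a log2 ratio of -0.07 (interval -0.20 to 0.07). The mitochondrially encoded messages took 1.51% of counts at 6 h and 1.47% at 2 h, and the 29 nuclear subunits of the respiratory chain had a median log2 ratio of 0.00, with 15 above and 14 below 0.

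Glucose uptake and glycolysis had 19 of 21 genes compared, with a median log2 ratio of 0.45. Of these, 17 had a log2 ratio above 0, 8 passed 0.5 and 2 (Slc16a3 and Pfkl) were called higher. Over all compared genes the shares were 55.0%, 1.13% and 0.163%. Slc2a1, the glucose transporter of most cells, had 168.6 CPM at 6 h and 88.5 CPM at 2 h (log2 ratio 0.93, interval 0.87 to 0.99). Most enzymes of the pathway were higher as well. Hk1, which phosphorylates glucose, had 136.0 CPM at 6 h and 84.6 CPM at 2 h; its relative Hk2 had 237.6 CPM at 6 h and 214.0 CPM at 2 h, a log2 ratio of 0.15. Tpi1, the triose isomerase, had 1899 CPM at 6 h and 1081 CPM at 2 h (log2 ratio 0.81). Log2 ratios were 0.63 for the mutase Pgam1, 0.58 for the aldolase Aldoc, 0.56 for the kinase Pgk1, 0.49 for the enolase Eno1 and 0.44 for Ldha, the lactate dehydrogenase subunit.

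The phosphofructokinase subunits differed. While Pfkl was called higher, the platelet-type Pfkp had 1225 CPM at 6 h and 1081 CPM at 2 h (log2 ratio 0.18), and the muscle-type Pfkm had 42.2 CPM at 6 h and 43.6 CPM at 2 h (log2 ratio -0.04). Pfkfb3, which makes the activator of phosphofructokinase and is a known HIF target, was the gene of the list with the lowest ratio, with 33.2 CPM at 6 h and 42.3 CPM at 2 h (log2 ratio -0.35, interval -0.45 to -0.25). Several glycolytic enzymes have processed copies in the mouse genome, and reads could be split among them: the entry Pgam1-ps2 had 95.7 CPM at 6 h and 60.6 CPM at 2 h, and Pgk1-rs7 had 10.9 CPM at 6 h and 5.73 CPM at 2 h. Both copies had ratios above 0, as did Pgam1 and Pgk1. Gapdh and Pgk1, often used to normalise messages between samples, had log2 ratios of 0.33 and 0.56 here.

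Fewer genes were called lower, and only 2 of the 8, Chac1 and Slc1a4, have an ordinary symbol. Both are ATF4 targets. Chac1 (ENSMUSG00000027313), which degrades glutathione, had 12.4 CPM at 6 h and 27.1 CPM at 2 h (log2 ratio -1.12, interval -1.28 to -0.97). Slc1a4 (ENSMUSG00000020142), a transporter of alanine, serine and cysteine, had 28.1 CPM at 6 h and 60.4 CPM at 2 h (log2 ratio -1.10, interval -1.20 to -0.999). For both, the 2 h library held the highest level of the series. Chac1 had 13.4, 27.1, 12.4, 7.501 and 5.88 CPM at 0, 2, 6, 12 and 24 h, and Slc1a4 had 17.5, 60.4, 28.1, 8.48 and 6.72 CPM. By 6 h Chac1 was back near its vehicle level while Slc1a4 was still above it, and at 12 and 24 h both were below.

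The composite element bound by ATF4 with a partner, searched as TGATGNAAN on both strands with N for any base, stood in the promoter window of both genes and of Trib3. It is shown in capitals within 29 bases at chr2:119351038-119351066, plus strand, for Chac1, at chr11:20332700-20332728, minus strand, for Slc1a4, and at chr2:152344029-152344057, minus strand, for Trib3, from RefSeq on GRCm38.p6. In all 3 it reads in the reverse direction along the gene.
Chac1: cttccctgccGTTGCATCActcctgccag
Slc1a4: tgcctcctgcGTTGCATCAtctccagcct
Trib3: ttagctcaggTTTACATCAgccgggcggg

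Of all 27025 genes with a promoter entry 4.50% held this element, and of the 6858 compared genes with an entry 2.57%. It was found in 4 of 11 ATF4-target regulators, 1 of 5 transporters and 2 of 9 enzymes with an entry. No match says only that these letters are not in this window.

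The 3 groups of ATF4 targets differed. Among the amino acid transporters 7 of 10 were compared and all 7 had a log2 ratio below 0, with a median of -0.33. The limit of 0.5 was passed by 3. Over all compared genes 45.0% lay below 0, and 0.453% passed that limit on the lower side. In the same libraries the 4 nuclear-retained and RNA-quality transcripts had a median of -0.25, and the part of RNA quality in these ratios was not tested. Slc7a5, the large neutral amino acid transporter, had 317.7 CPM at 6 h and 486.6 CPM at 2 h (log2 ratio -0.61, interval -0.65 to -0.58). Its vehicle level was 209.2 CPM, and it had 139.3 CPM at 12 h and 106.9 CPM at 24 h. Slc7a1, the arginine and lysine transporter, had 176.9 CPM at 6 h and 267.9 CPM at 2 h (log2 ratio -0.60). Slc3a2, the heavy chain that carries Slc7a5 to the membrane, had 275.0 CPM at 6 h and 345.0 CPM at 2 h, and the glycine transporter Slc6a9 had 43.9 CPM at 6 h and 53.5 CPM at 2 h. Slc7a11, the cystine importer, stayed under the minimum with 6.55 CPM at 6 h and 7.23 CPM at 2 h (interval of the log2 ratio -0.39 to 0.10).

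Among the stress response regulators 12 of 16 were compared, 10 with a log2 ratio below 0, and the median was -0.31. The limit of 0.5 was passed on the lower side by 4, against 0.453% of all compared genes. Trib3, a pseudokinase that restrains ATF4, had 35.6 CPM at 6 h and 65.5 CPM at 2 h (log2 ratio -0.88, interval -0.97 to -0.79). Ddit3, the factor CHOP of the stress response, had 20.4 CPM at 6 h and 35.5 CPM at 2 h (log2 ratio -0.80), and its exons overlap those of another gene on the same strand. Sesn2, a leucine sensor that restrains mTORC1, had 104.3 CPM at 6 h and 172.8 CPM at 2 h (log2 ratio -0.73). The Atf4 message itself had 502.3 CPM at 6 h and 660.5 CPM at 2 h (log2 ratio -0.39, interval -0.42 to -0.37); its protein is set mainly by translation, which these data do not measure. In the other direction stood Ddit4, a stress-induced brake on mTORC1 that HIF also induces, with 39.9 CPM at 6 h and 28.96 CPM at 2 h (log2 ratio 0.46), and Atf5, with 39.7 CPM at 6 h and 32.9 CPM at 2 h (log2 ratio 0.27).

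The amino acid and one-carbon enzymes, also ATF4 targets, had nearly the same levels at 6 h as at 2 h. Their median log2 ratio was 0.02 over 10 compared genes, with 5 above and 5 below 0. Asns, the asparagine synthetase, had 138.2 CPM at 6 h and 141.3 CPM at 2 h, with an interval of -0.09 to 0.02 for its log2 ratio. Phgdh, the entry enzyme of serine synthesis, had 83.4 CPM at 6 h and 83.5 CPM at 2 h. Lower levels came with the next step: for 12 h over 6 h all 10 enzymes were below 0, with a median of -0.68, and Asns had 64.6 CPM at 12 h. The 20 cytosolic tRNA synthetases showed the same order of steps, with a median of -0.04 at 6 h over 2 h and of -0.41 at 12 h over 6 h, where all 20 were below 0. The transporters had a median of -0.33 in the first of these steps and of -0.74 in the second. The 2 steps share the 6 h library, so their values are only set side by side.

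**Figure D2:**
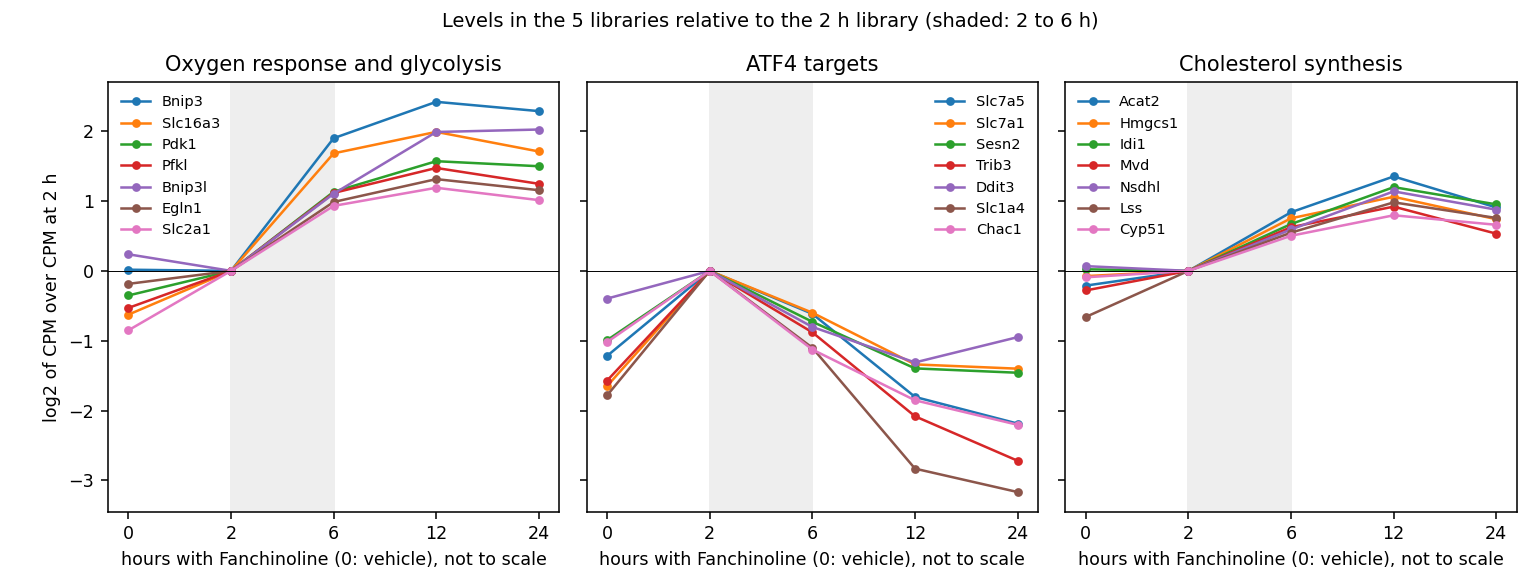
Levels of 21 genes in the 5 libraries, as log2 of CPM over the CPM at 2 h, against hours with Fanchinoline (0 is the vehicle library; the hours are evenly spaced and not to scale), with the 2 to 6 h step shaded. The oxygen and glycolysis genes shown (left) and cholesterol genes shown (right) lie above their 2 h level at 6, 12 and 24 h. The ATF4 targets shown (middle) have their peak at 2 h. The genes shown are among those with the largest ratios of their lists in size, so their side of the 2 h level at 6 h follows from the choice. Other ATF4 targets, such as Atf5 and Ddit4, were not highest at 2 h.

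Cholesterol synthesis genes were higher along the whole pathway, by less than the called genes. All 21 genes were compared and all 21 had a log2 ratio above 0, 20 of them with an interval that excluded 0. Over all compared genes 55.0% lay above 0, and 26.9% did so with such an interval. The median of the 21 was 0.48. The limit of 0.5 was passed by 9, against 1.13% of all compared genes, and none passed that of 1. Acat2, which joins acetyl-CoA units at the head of the pathway, had 145.6 CPM at 6 h and 81.4 CPM at 2 h (log2 ratio 0.84, interval 0.78 to 0.90). Hmgcs1, the next enzyme, had 386.4 CPM at 6 h and 229.3 CPM at 2 h (log2 ratio 0.75, interval 0.71 to 0.79). Further down, Mvd and Idi1 had log2 ratios of 0.62 and 0.67, Sqle and Lss, which make and close the sterol ring precursor, had 0.49 and 0.55, and Nsdhl of the late steps had 0.59. Ebp, the sterol isomerase, had the lowest ratio with 73.8 CPM at 6 h and 70.7 CPM at 2 h (interval -0.01 to 0.14).

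The genes that control this pathway gave uneven ratios. Insig1, which holds SREBP back and is itself its target, had 95.6 CPM at 6 h and 70.6 CPM at 2 h (log2 ratio 0.44). Srebf2, the gene of the sterol-responsive SREBP, had 956.3 CPM at 6 h and 930.0 CPM at 2 h (log2 ratio 0.04), and its escort Scap had a log2 ratio of -0.16. Over the 10 compared genes of SREBP control and uptake the median was 0.04. Fatty acid synthesis had all 11 compared genes above 0, with a median of 0.28; the desaturase Scd2 had 1177 CPM at 6 h and 754.0 CPM at 2 h (log2 ratio 0.64), the elongase Elovl6 had a log2 ratio of 0.58, and the synthase Fasn had 806.2 CPM at 6 h and 616.2 CPM at 2 h (log2 ratio 0.39).

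In the later libraries the cholesterol genes were first higher still and then lower: for 12 h over 6 h all 21 were above 0, with a median of 0.29. For 24 h over 12 h, which uses neither the 6 h nor the 2 h library, all 21 cholesterol genes were below 0, with a median of -0.26; over the genes compared here 3435 were above and 5162 below 0, with a median of -0.04. Glycolysis had 4 genes above and 15 below 0 in that step (median -0.14). The 7 transporters and the 10 enzymes under ATF4 were again all below 0, with medians of -0.24 and -0.29.

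**Figure D3:**
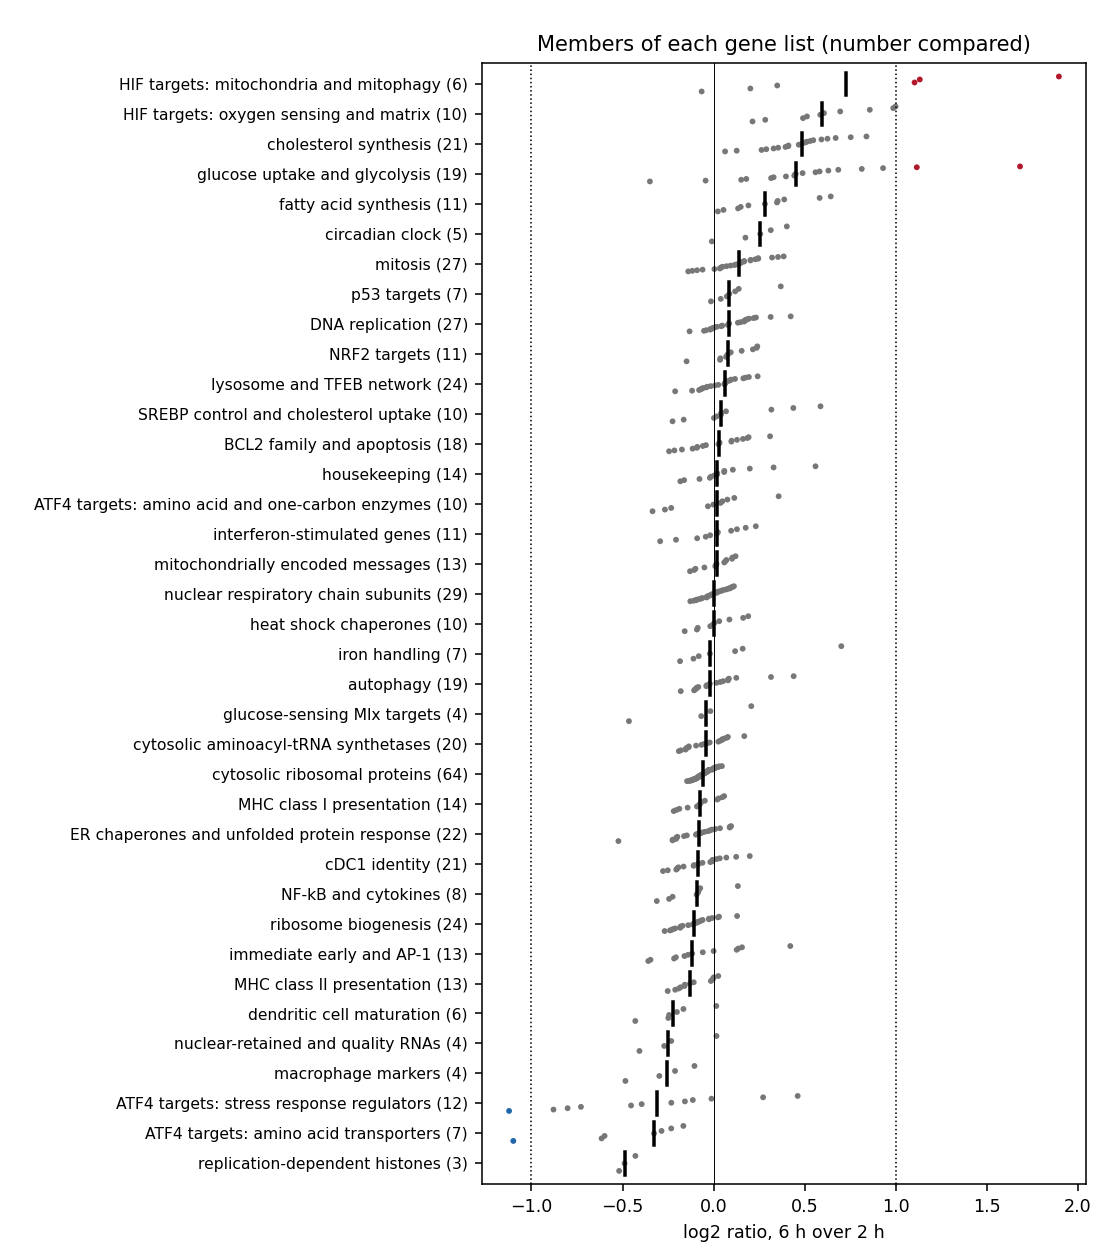
Log2 ratio of 6 h over 2 h for the compared members of each gene list with at least 3 of them (number in brackets), 1 point per gene, with a black bar at the list's median and dotted lines at 1 and -1. The HIF, cholesterol and glycolysis lists stand at the top with medians of 0.45 to 0.73, the ATF4 transporters and regulators near the bottom with -0.33 and -0.31, and most other lists within 0.25 of 0.

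Lists for several other processes had medians near 0, with single members apart. Tfrc, the transferrin receptor for iron uptake, had 219.3 CPM at 6 h and 134.9 CPM at 2 h (log2 ratio 0.70, interval 0.65 to 0.75), whereas its list of 7 iron genes had a median of -0.02. Herpud1, a gene of the unfolded protein response, had 198.0 CPM at 6 h and 284.5 CPM at 2 h (log2 ratio -0.52), in a list of 22 with a median of -0.08. The chaperone Hspa5 of the same list had 1087 CPM at 6 h and 1254 CPM at 2 h (log2 ratio -0.21). No gene was called among lysosomal genes (median 0.06 of 24), autophagy genes (-0.02 of 19), heat shock chaperones (0.00 of 10) and NRF2 targets (0.08 of 11). With 0.256% of all compared genes called, lists of these sizes would rarely hold a call. Hmox1, the heme oxygenase that NRF2 induces, had 795.6 CPM at 6 h and 675.7 CPM at 2 h (log2 ratio 0.24).

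Other lists lay further from 0 as a whole. The 3 compared genes listed as histones had a median of -0.49 and all lay below 0, the 5 circadian clock genes had a median of 0.26, and the 4 macrophage markers compared had -0.25. Of the nuclear-retained and RNA-quality transcripts given above 3 of 4 lay below 0; Malat1, a nuclear RNA, had 113.0 CPM at 6 h and 149.9 CPM at 2 h (log2 ratio -0.41).

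Genes of growth and division differed little, but many of them in 1 direction. Of 64 cytosolic ribosomal protein genes 53 lay below 0, with a median of only -0.06, and of 24 ribosome biogenesis genes 21 lay below 0, with a median of -0.11. Myc, which drives that programme, had 201.4 CPM at 6 h and 237.8 CPM at 2 h (log2 ratio -0.24). Of 27 mitosis genes 23 lay above 0 (median 0.14), among them Mki67 with 419.6 CPM at 6 h and 321.4 CPM at 2 h (log2 ratio 0.38). The linker histone gene H1f2 had 157.7 CPM at 6 h and 226.0 CPM at 2 h (log2 ratio -0.52). Over all compared genes 55.0% lay above 0, so these shares are to be read against that background.

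Dendritic cell genes were slightly lower at 6 h in most cases. None of 21 cDC1 identity genes was called. With 0.256% of all compared genes called, a list of this size would rarely hold a call. Of the 21 genes 16 lay below 0, with a median of -0.08. Irf8, the factor that defines the cDC1 lineage, had 4317 CPM at 6 h and 5140 CPM at 2 h (log2 ratio -0.25). Of 13 genes of MHC class II presentation 11 lay below 0 (median -0.13), and H2-Ab1 had 1588 CPM at 6 h and 1838 CPM at 2 h (log2 ratio -0.21). The 6 compared maturation genes had a median of -0.22, led by the co-stimulatory receptor Cd40 with 36.9 CPM at 6 h and 49.7 CPM at 2 h (log2 ratio -0.43). Interferon-stimulated genes had a median of 0.02 and NF-kB and cytokine genes of -0.09. The macrophage markers, read as signs of another cell type, summed to 55.9 CPM at 6 h and 63.4 CPM at 2 h, with 4 of 8 at no count in both.

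The remaining calls were mostly gene entries whose exons overlap another gene. Among the genes of the lists with values here, Scd2, Ddit3, Pfkm, Fdps and Malat1 overlap a same-strand gene. Ddit3, Pfkm and Malat1 overlap an opposite-strand gene as well. Higd1a, Ankrd37, Ndrg1, Car9, Slc2a1, Hk1, Tpi1, Gapdh, Pfkp, Hmgcs1, Idi1, Lss, Scap, Elovl6, Slc6a9 and Atf5 overlap an opposite-strand gene, as do Fam162a, Acss2 and Phlda1; its share in their counts was not tested. Of the 14 entries called higher 4 overlap exons of a same-strand neighbour, as do 3 of the 8 called lower, against 9.39% of the compared genes. How the authors counted reads lying in several genes is unknown. Gm45717, the lowest ratio of all, had 0.0707 CPM (3 counts) at 6 h and 24.1 CPM at 2 h (log2 ratio -7.62, interval -10.69 to -6.86), while the gene it overlaps, Ifitm2, had 74.8 CPM at 6 h and 52.6 CPM at 2 h. Their sum was 74.9 CPM at 6 h and 76.7 CPM at 2 h. Nnt, the mitochondrial transhydrogenase, has a pair of entries: the one called higher (ENSMUSG00000116207) had 17.7 CPM at 6 h and 7.55 CPM at 2 h, the other had 87.8 CPM at 6 h and 97.01 CPM at 2 h, and their sum was 105.6 CPM at 6 h and 104.6 CPM at 2 h. For Gm29253 and Abcb6 the sum was 32.9 CPM at 6 h and 31.7 CPM at 2 h, although the log2 ratios were -3.43 and 0.75.

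Gm21982, the highest ratio, had 66.1 CPM at 6 h and 3.27 CPM at 2 h (log2 ratio 4.32). Of the genes it overlaps, Rbm42 had 117.5 CPM at 6 h and 156.1 CPM at 2 h, and Haus5 had 32.5 CPM at 6 h and 57.5 CPM at 2 h. Gm43738, with 51.0 CPM at 6 h and 6.83 CPM at 2 h, overlaps Rusc1 and the cholesterol gene Fdps, whose log2 ratios were -0.17 and 0.26. Gm10143 and Gm10252 lie opposite to Fen1 and Ftl1 and were called lower with log2 ratios of -1.90 and -1.57, in libraries that do not mark strand. Each sum took 1 overlapping gene at a time, and not every such sum was level. Gm21982 had a log2 ratio of 0.70 with Haus5 and 0.20 with Rbm42. Gm44502 had 0.74 with Cpt1b and 0.10 with Chkb, and Mfsd4a had 0.43 with Elk4. Sums over all partners of an entry were not made, so these values do not show that a locus as a whole differed. No cause of these ratios was tested, and they are not read as changes of the overlapping genes. 1700001L05Rik, with 20.3 CPM at 6 h and 9.16 CPM at 2 h (log2 ratio 1.14), overlaps no other gene. Gm53012, with 6.81 CPM at 6 h and 14.04 CPM at 2 h (log2 ratio -1.04), was not found in the annotation used, and Gm44502 and Gm45140 had log2 ratios of 1.04 and -1.11.

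**Figure D4:**
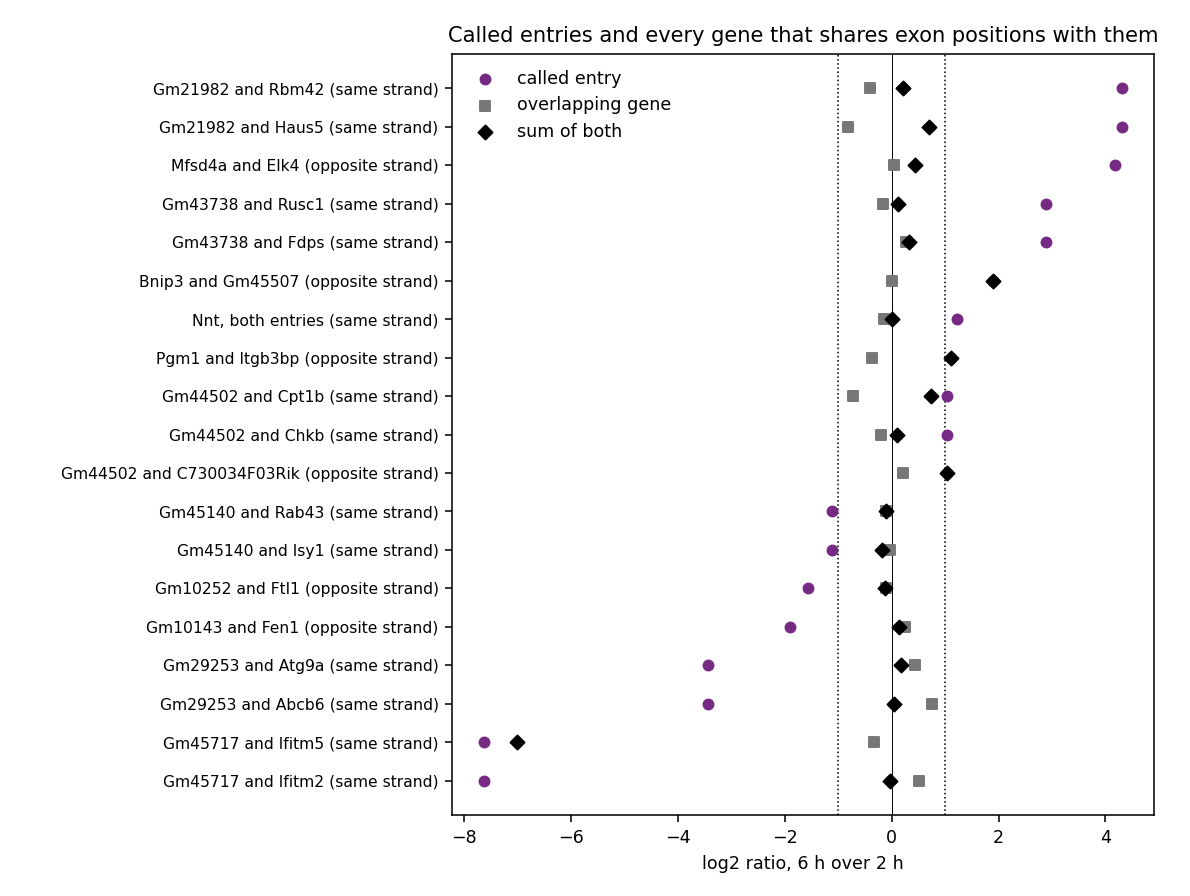
Log2 ratio of 6 h over 2 h for 12 called entries (circles), for each gene whose exon positions they share (squares; 19 pairs in all), and for the sum of both (diamonds; Gm45507 had no count and its square stands at 0). Each sum takes 1 overlapping gene at a time. The sums range between -7.01 for Gm45717 with Ifitm5 (-0.035 with Ifitm2) and 1.90 for Bnip3 with Gm45507. Where the overlapping gene is far more abundant, as for Ftl1 and Gm10252, the sum necessarily follows that gene.

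Among the 97 and 39 genes past the limit of 0.5, 19.6% and 35.9% overlap exons of a same-strand gene, against 9.4% of all compared genes. Outside the lists, and named after their values were seen, stood Fam162a, a mitochondrial protein induced by low oxygen, with 40.7 CPM at 6 h and 23.8 CPM at 2 h (log2 ratio 0.77). Mif, a cytokine gene that HIF induces, had 474.2 CPM at 6 h and 331.8 CPM at 2 h (log2 ratio 0.52). Lpin1, a phosphatidate phosphatase that is also an SREBP target, had 52.1 CPM at 6 h and 33.4 CPM at 2 h (log2 ratio 0.64), and Aacs and Acss2, which supply acetyl units to lipid synthesis, had log2 ratios of 0.55 and 0.60. On the lower side Phlda1 had 71.8 CPM at 6 h and 109.8 CPM at 2 h (log2 ratio -0.61).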

How the data were processed

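Poly-A RNA of MutuDC cells was sequenced in 5 libraries, 1 per time point. The values are raw gene counts as deposited by the authors. Trim Galore, HISAT2 and the build GRCm38 are named, without versions, in the submitters' processing notes. The sources used here do not say which program counted, with which annotation, whether by strand, or whether counts are reads or come from coverage, in which case the intervals would not hold.

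TMM factors over the 5 libraries (0.977 to 1.05; edgeR 4.0.16, R 4.3.3) scaled the counts, and log2 CPM used a prior count of 2. Genes with at least 10 CPM at 6 h or 2 h were compared by the log2 ratio, with 95% exact (Clopper-Pearson) intervals that take 1 count as 1 read. Without molecular identifiers PCR copies count as reads, so the intervals cover counting error only. Total counts lay between 33568526 and 42854511.

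The genes named were up to 14 called ones with an ordinary symbol per direction, by size of ratio, up to 4 from each of 42 lists, and 22 by name; others were chosen after their values were seen, and a few genes the rule takes are not reported here. The members and lists were chosen with earlier results of these data known. Symbols with several entries were represented in lists by the entry with the most counts. Overlaps came from GENCODE M21 on GRCm38, in which 99.9% of compared genes were found; promoters came from RefSeq on GRCm38.p6. A sterol element was also searched and was found in 0 of 16 cholesterol genes, against 0.1% of genes with an entry. Tried as alternatives were DESeq2's size factors (DESeq2 1.42.0), other scalings, priors, minimum levels and size limits, an adjustment for length and GC content, and leaving out overlapping genes.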

Additional observations from a re-analysis of the deposited data

How the results depend on the processing

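The counts of called genes (14 higher and 8 lower at 6 h) depended on the minimum level and the size limit. With a minimum of 1 CPM 56 were higher and 54 lower, with 30 CPM 8 and 1, and with no minimum beyond 1 count 302 and 368. A ratio of at least 1.5 gave 65 higher and 28 lower, and the log2 limit of 0.5, added after seeing the data, 97 and 39. Leaving out genes that share exon positions, also added later, left 10 and 5 (same strand) or 7 and 3 (either strand), since fewer genes were compared. Under the other scalings and priors and without mitochondrially encoded genes, all 14 and 8 calls remained, with 9 lower in all under DESeq2's size factors and without mitochondrially encoded genes. With the adjustment for length and GC content 16 were higher and 7 lower. Gm53012, which is not in the annotation and so has no length, was not compared in that setting. Of 366 list medians under the alternatives 357 moved by less than the typical counting interval of a member and 9 by more; the largest move took the mitochondria and mitophagy list to 1.12 at a minimum of 1 CPM. None of size 0.1 or more changed sign. No paired analysis was possible because each time point is 1 library. At 10 CPM a gene had 425 counts at 6 h and 373 at 2 h, and differences between cultures were not measurable at any depth.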

Other observations

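Beyond the gene lists, and chosen after their values were seen, a pair of targets of the aryl hydrocarbon receptor, a ligand-activated factor, had ratios below 0 without passing the size limit. Tiparp, which restrains the receptor and overlaps an opposite-strand gene, had 30.6, 57.7, 36.3, 45.1 and 34.3 CPM at 0, 2, 6, 12 and 24 h, a log2 ratio of -0.67 for 6 h over 2 h (interval -0.77 to -0.57). Ahrr, its repressor, had 49.3, 87.5, 63.2, 65.6 and 60.9 CPM, a log2 ratio of -0.47. Both had their highest level at 2 h. Cyp1a1, the classic target, had no count in any of the 5 libraries, Cyp1b1 had none at 6 h or 2 h, and the receptor gene Ahr had 10.5 CPM at 6 h and 10.3 CPM at 2 h.

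Septin2, a cytoskeletal GTPase with a pair of entries, had log2 ratios of 0.61 and -0.62 for them, while their sum was 252.9 CPM at 6 h and 239.8 CPM at 2 h. Cpne1 and the overlapping Gm28036 had log2 ratios of -0.93 and 0.93, with a sum of 112.9 CPM at 6 h and 99.6 CPM at 2 h. Cpne1 also overlaps Rbm12 on the same strand, which had 22.7 CPM at 6 h and 30.6 CPM at 2 h. The sum of Cpne1 and Rbm12 was not level, with a log2 ratio of -0.735.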
